A study of Homo sapiens with 6 samples.

Results

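VEGFA, P4HA2 and CA9 are 3 genes that the hypoxia-inducible factors (HIF) can switch on, and they moved apart when RKO cells were kept in fasting medium. They were picked by name from 3511 listed genes because earlier results of these data had shown them to diverge, so their own differences are described here without a test. RKO is an established human colorectal carcinoma cell line, labelled wild type, and messenger RNA levels were read by RNA sequencing after 48 h. The fasting group was 3 samples in medium with 1% serum and 1 g/L glucose, and the control group was 3 samples in medium with 10% serum and 4.5 g/L glucose. All 6 samples came from this 1 line. The labels do not say if the 3 samples of a medium were grown separately. All p-values therefore reflect the spread among these libraries, and that spread may be technical.

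HIF is a transcription factor whose alpha subunit is hydroxylated and degraded while oxygen is plentiful, and which drives genes for blood vessel growth, glucose use, collagen modification and acid handling when oxygen is short. Several of these genes also answer to other signals. VEGFA encodes the secreted ligand that makes endothelial cells divide and vessels leak, and besides HIF it is known to be induced by the amino acid and endoplasmic reticulum stress factors ATF4 and XBP1. P4HA2 encodes a catalytic subunit of collagen prolyl 4-hydroxylase, which hydroxylates proline in procollagen inside the endoplasmic reticulum. CA9 encodes carbonic anhydrase IX, a cell surface enzyme that turns carbon dioxide and water into bicarbonate and protons and is widely used as a marker of hypoxia in tumours.

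The bases before the transcription start are shown for P4HA2 and CA9, because these genes lay on opposite sides of their controls. RefSeq windows were matched for 2 of the 3 genes, and the 250 bases before the start are printed 5′ to 3′ on the gene's strand (GRCh38.p14). The P4HA2 window is chr5:132227092-132227341, minus strand, and the CA9 window is chr9:35673678-35673927, plus strand. Capitals mark matches to the HIF core letters ACGTG or GCGTG, the AP-1 letters TGANTCA, the ATF4 letters TGATGNAA and the cAMP element TGACGTCA, searched on both strands.
P4HA2: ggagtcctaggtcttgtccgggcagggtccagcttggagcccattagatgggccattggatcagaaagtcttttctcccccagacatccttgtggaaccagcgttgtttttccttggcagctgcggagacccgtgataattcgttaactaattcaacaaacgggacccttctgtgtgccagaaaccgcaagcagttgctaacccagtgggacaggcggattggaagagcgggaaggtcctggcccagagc
CA9: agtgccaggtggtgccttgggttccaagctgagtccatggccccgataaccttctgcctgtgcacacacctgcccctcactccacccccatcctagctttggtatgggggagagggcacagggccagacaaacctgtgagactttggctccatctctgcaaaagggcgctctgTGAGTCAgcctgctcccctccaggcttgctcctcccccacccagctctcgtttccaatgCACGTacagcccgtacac
In CA9, the capitals nearest the start read ACGTG on the opposite strand and begin 18 bases before the start, and the other capitals are a match to TGANTCA that begins 77 bases before it. These 2 matches do not overlap. The P4HA2 window held no match to any of these letters, and GENCODE annotates further P4HA2 transcripts that begin upstream of it. Of 27305 RefSeq windows of the same length, 18.7% held ACGTG, 31.9% GCGTG, 6.60% TGANTCA, 3.19% TGATGNAA and 1.77% TGACGTCA. Such matches describe the letters alone, and no binding was measured here.

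VEGFA (ENSG00000112715, chromosome 6) had 2741, 2649 and 2448 normalized counts in fasting replicates 1 to 3, against 728, 764 and 691 in control replicates 1 to 3. A normalized count is a gene's reads divided by a size factor of its library. Every fasting library lay above every control library, and the lowest fasting value was fasting replicate 3. The groups did not overlap in 100% of the 3511 listed genes, so this sets none of the 3 members apart. The means were 2612 ± 150 normalized counts in fasting medium and 728 ± 36 in control medium (SD, n = 3 each). On the log2(normalized count + 1) scale the difference of fasting minus control was 1.84 (SE 0.085), a 3.59-fold higher level.

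P4HA2 (ENSG00000072682, chromosome 5) had 1977, 1980 and 2160 normalized counts in fasting replicates 1 to 3, against 666, 704 and 674 in control replicates 1 to 3. The groups did not overlap, as in all listed genes, and fasting replicate 3 was the highest library. Means were 2039 ± 105 in fasting medium and 681 ± 20 in control medium, a log2 difference of 1.58 (SE 0.081), or 2.99-fold higher.

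CA9 (ENSG00000107159, chromosome 9) went the other way at a far lower level. It had 16.5, 13.6 and 16.5 normalized counts in fasting replicates 1 to 3, against 42.4, 42.6 and 48.7 in control replicates 1 to 3. Each fasting library lay below each control library, and all listed genes had groups without overlap. In RNA from a whole culture, fewer cells that express a gene and less RNA per cell cannot be told apart. Means were 15.5 ± 1.7 in fasting medium and 44.6 ± 3.6 in control medium, a log2 difference of -1.47 (SE 0.18) on this scale, and the log2 ratio of the group means in the authors' deposited table was -1.52.

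The CA9 values rest on few reads, 13, 13 and 12 in fasting replicates 1 to 3 and 43, 60 and 67 in control replicates 1 to 3. VEGFA had 1780 to 2532 reads per fasting library and 738 to 1075 per control library, and P4HA2 had 1557 to 1893 and 675 to 991. The spread of CA9 between fasting libraries, a coefficient of variation of 10.8%, was smaller than the 28.1% that counting that many reads gives by itself, so its SD understates its error. By the 38 fasting and 170 control reads together, the fasting level was 0.344 of the control level. The exact 95% conditional interval of 0.235 to 0.491 covers counting error only. It is not a test of the medium, since CA9 was picked from this contrast and reads are not replicates.

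CA9 also shares its locus. In the GENCODE annotation, 643 of the 1670 exon bases of CA9 are also exon bases of ARHGEF39, a gene on the opposite strand. The libraries were strand-specific, but whether the counting used the strand is not given, so reads of the 2 genes may not be fully told apart. ARHGEF39, named after its values were seen, had 63.5, 48.1 and 56.4 normalized counts in fasting replicates 1 to 3, against 88.8, 107 and 105 in control replicates 1 to 3. It fell by 0.84 on the log2 scale (limma adjusted p = 0.0103), a call lost without control replicate 2 (adjusted p = 0.0643) or control replicate 3 (adjusted p = 0.0647). CA9 was 0.63 log2 units further down than ARHGEF39. P4HA2 shares 548 of 8502 exon bases with the antisense gene P4HA2-AS1, and VEGFA 188 of 14431 with an antisense gene, neither of which was listed.

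**Figure D1:**
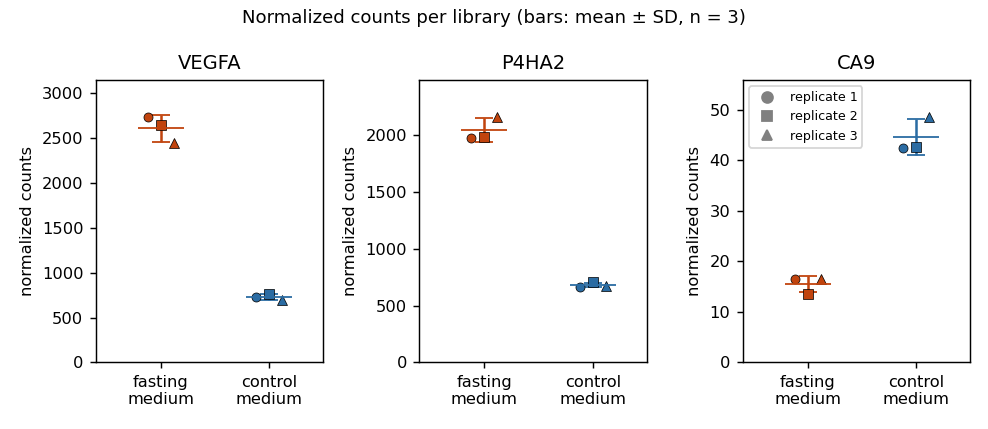
Normalized counts (y axis, from 0, a separate scale per panel) of VEGFA, P4HA2 and CA9 in the 3 fasting and 3 control libraries. Points are libraries, with a symbol for each replicate, and bars give the mean and SD. VEGFA and P4HA2 lie at 2448 to 2741 and 1977 to 2160 in fasting medium, above all control libraries, and CA9 lies at 13.6 to 16.5, below them.

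Per kilobase of the longest coding transcript, VEGFA and P4HA2 stood at nearly equal levels in control medium, 206 and 203 normalized counts per kilobase of transcript, and CA9 at 27.6. In fasting medium the levels per kilobase were 739 for VEGFA, 609 for P4HA2 and 9.60 for CA9. Among listed protein-coding genes the level per kilobase of CA9 was at the 7.9th percentile in fasting medium and the 14.7th in control medium. VEGFA was at the 88.0th percentile in fasting medium and the 61.9th in control medium, and P4HA2 at the 85.3rd and the 61.6th.

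A ratio of 2 genes within a library does not depend on how libraries are scaled to each other. For each read of CA9 there were 166, 195 and 148 reads of VEGFA in fasting replicates 1 to 3, against 17.2, 17.9 and 14.2 in control replicates 1 to 3. The fasting ratios lay far above the control ratios, with means of 170 ± 23 in fasting medium and 16.4 ± 2.0 in control medium. P4HA2 reads per CA9 read were 120, 146 and 131 in fasting replicates 1 to 3, against 15.7, 16.5 and 13.9 in control replicates 1 to 3. From the means of log2 ratios, the ratio to CA9 was 10.3-fold higher in fasting medium for VEGFA and 8.60-fold higher for P4HA2.

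VEGFA and P4HA2 stayed close to each other. VEGFA reads per P4HA2 read were 1.39, 1.34 and 1.13 in fasting replicates 1 to 3, against 1.09, 1.08 and 1.02 in control replicates 1 to 3. The lowest fasting ratio, in replicate 3, was only just above the highest control ratio.

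**Figure D2:**
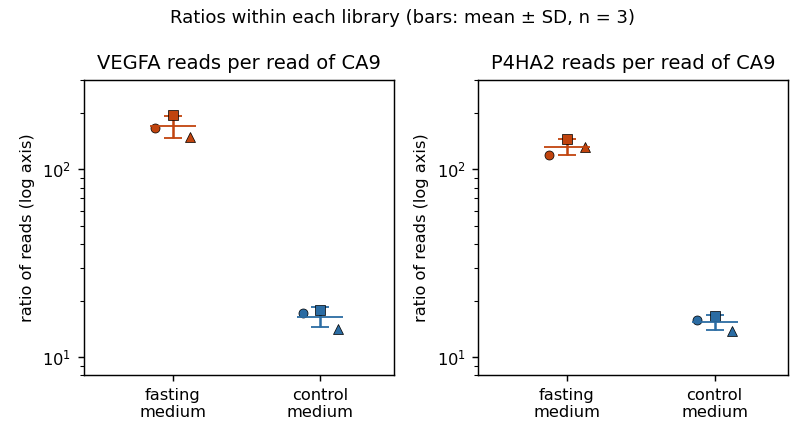
Reads of VEGFA (left) and of P4HA2 (right) per read of CA9 in each library, on a log axis, for fasting and control medium. Points are libraries and bars give the mean and SD. The VEGFA ratio is 148 to 195 in fasting medium and 14.2 to 17.9 in control medium.

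Reads in the listed genes numbered 4187326 to 5071791 per fasting library and 4017618 to 5602177 per control library, and total depth is unknown. Fasting replicate 3 stood apart by transcript length. Its values were a median of 0.41 log2 units above the other fasting libraries for transcripts of 78 to 2383 bases, and the difference was -0.46 for those of 5165 to 22743 bases. For the coding transcripts of 3535 bases of VEGFA, 3349 bases of P4HA2 and 1618 bases of CA9, the difference was -0.14, 0.13 and 0.13. Without that library the log2 differences of fasting minus control were 1.89 for VEGFA, 1.54 for P4HA2 and -1.51 for CA9. Of 10 epithelial and colorectal markers KRT18 alone was listed, and it rose (log2 difference 1.72, limma adjusted p = 1.08e-03). None of 6 endothelial, 7 fibroblast or 5 leukocyte markers was listed, so the identity of the cells could not be read from these values. Of 11 immediate early and stress genes taken as signs of RNA handling, 9 were listed (81.8%), against 11.8% of all genes the authors tested. In the limma fit 49.7% of all listed genes were called higher, and all 9 of these rose. JUNB did not pass with libraries scaled to their summed reads over the table (adjusted p = 0.189) or without control replicate 1 (adjusted p = 0.0542). Their summed level was 43386 to 51258 normalized counts in fasting medium and 6661 to 7115 in control medium, and their part in the results was not tested.

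Other HIF target genes also went both ways, with more risers than fallers. Of 43 genes written down as HIF targets, 18 were listed (41.9%), against 11.8% of the 29845 genes the authors tested, 5.91% listed as higher and 5.85% as lower in fasting medium. The table holds only genes the authors had called, and a gene outside it is described as not listed. Of the 3511 listed genes, 2897 averaged 100 or more normalized counts in either group. Levels of unlisted genes are unknown, so the share listed of any list is not matched to the 29845 genes for level. Among the 18, 13 rose and 5 fell in the limma fit, at an adjusted p under 0.05 counted over all 29845 genes. That fit called 94.3% of the listed genes, 49.7% higher and 44.6% lower, and in 100% of listed genes the groups did not overlap. The share called is thus that of the table, and the direction is what the count adds. The median log2 difference was 0.75 for the 18 genes and 0.53 for all listed genes.

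Among the 13 risers were genes of stress signalling, glucose uptake, vessel tone and collagen modification. DDIT4, which restrains mTORC1 signalling and is also a stress gene, had 631 ± 66 normalized counts in fasting medium and 124 ± 2 in control medium, and rose by 2.33 log2 units (SE 0.11, limma adjusted p = 2.28e-05). SLC2A3, a glucose transporter with high affinity, rose by 1.92 (adjusted p = 1.84e-05), and SLC2A1, the common glucose transporter, by 0.73. ADM, the vasodilator peptide adrenomedullin, rose by 1.84. P4HA1, the other main prolyl 4-hydroxylase subunit, rose by 1.59. MXI1, a MYC antagonist, rose by 1.04, and BNIP3L, a mitophagy receptor, by 0.82. The remaining risers, between 0.54 and 0.94, were BHLHE40, JMJD6, PLIN2, KDM3A, PLOD1 and TFRC.

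The 5 fallers were SLC16A3, CA12, LDHA, EGLN1 and ANGPTL4. SLC16A3, the lactate and proton exporter of glycolytic cells, had 2055 ± 218 normalized counts in fasting medium and 3967 ± 239 in control medium, and fell by 0.95 log2 units (SE 0.10, limma adjusted p = 6.29e-04). CA12, the other membrane carbonic anhydrase with an extracellular active site that HIF is known to induce, had 196 ± 37 in fasting medium and 369 ± 13 in control medium, and fell by 0.92 (limma adjusted p = 4.66e-03). LDHA, lactate dehydrogenase A, fell by 0.59. EGLN1, the main HIF prolyl hydroxylase, fell by 1.14, and ANGPTL4, a secreted inhibitor of lipoprotein lipase, fell by 0.63.

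Of these 18 calls, 10 held in the same direction under every setting in which the gene was fitted, those of DDIT4, SLC2A3, P4HA1, ADM, MXI1, BHLHE40, JMJD6, SLC16A3, CA12 and LDHA, and no gene changed sign. With libraries scaled to their summed reads over the table (total-read scaling), 7 rose and 5 fell, with SLC2A1 at 0.25 and TFRC at 0.06, while with RLE scaling 13 rose and 3 fell. EGLN1 did not pass once control replicate 1 was left out (limma adjusted p = 0.108), or control replicate 2 (adjusted p = 0.111), and ANGPTL4, KDM3A and TFRC lost theirs on leaving out any library other than fasting replicate 3 (highest adjusted p = 0.140, 0.102 and 0.176).

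**Figure D3:**
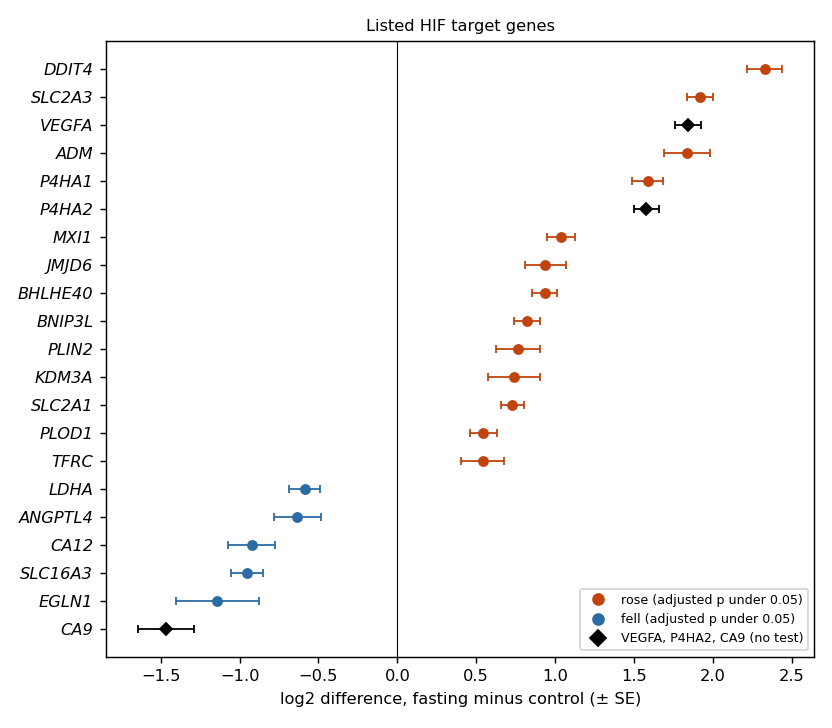
Log2 difference of fasting minus control (x axis, with SE) for the 18 listed HIF target genes and for VEGFA, P4HA2 and CA9, ordered by size. Circles are tested genes that rose or fell, and black diamonds are the 3 genes described without a test. CA9 at -1.47 lies below the 5 fallers, and VEGFA at 1.84 and P4HA2 at 1.58 lie among the largest rises.

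The same letters were counted in the windows of the list. Windows were matched for 38 of the 43 genes, and 20 of them held ACGTG (52.6%), beside 18.7% of all windows. It was found in 5 of the 10 matched risers and 3 of the 5 fallers. GCGTG was also in 20 of the 38 windows (52.6%), beside 31.9% of all windows, and in 5 of the 10 risers and 1 of the 5 fallers. Either of these was in 8 of the 10 risers and 4 of the 5 fallers. The GC box letters GGGCGG, searched on both strands too, were in 30 of the 38 (78.9%), beside 42.3% of all windows. None of the 38 windows held TGANTCA, which is in the CA9 window, or TGATGNAA, and 1 held TGACGTCA (2.63%). Of all windows 6.60%, 3.19% and 1.77% held these letters, so few matches would be expected in 38 windows anyway.

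The factors that act on HIF itself were listed about as often as all genes tested. Of 17 HIF subunits, oxygen sensors and cofactors 2 were listed (11.8%), the share found for all genes tested by the authors (11.8%). CITED2, which competes with HIF for its coactivators, had 734 ± 120 normalized counts in fasting medium and 280 ± 8 in control medium and rose by 1.37 log2 units (limma adjusted p = 3.43e-04). EGLN1 is the other. HIF1A, EPAS1 and EGLN3 were not listed, and neither were the HIF targets PDK1 and NDRG1.

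Among the relatives of VEGFA, 4 of 9 VEGF ligands and receptors were listed (44.4%), against 11.8% of all genes the authors tested. Of these 4, 3 rose and 1 fell (median log2 difference 1.46), where limma called 49.7% of all listed genes higher and 44.6% lower. PGF, placental growth factor, had 1735, 1775 and 2554 normalized counts in fasting replicates 1 to 3, against 422, 458 and 430 in control replicates 1 to 3. It rose by 2.18 log2 units (SE 0.15, limma adjusted p = 1.01e-04). The co-receptors went apart, with NRP1 up by 1.31 (1671 ± 370 in fasting medium and 662 ± 35 in control medium) and NRP2 at 43.4 ± 11.9 in fasting medium and 107.5 ± 1.3 in control medium (log2 difference -1.32, adjusted p = 3.79e-03). VEGFC, the lymphatic vessel ligand, was low, at 16.5, 22.0 and 34.4 normalized counts in fasting replicates 1 to 3 and 6.90, 4.97 and 9.45 in control replicates 1 to 3. It rose by 1.62 log2 units (adjusted p = 0.0146), but not past the threshold without control replicate 1 (adjusted p = 0.0604) or control replicate 2 (adjusted p = 0.0656), or with total-read scaling, where NRP1 did not pass either (adjusted p = 0.0717 for VEGFC and 0.0585 for NRP1). VEGFB was not listed.

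Stress and growth signal factors other than HIF that are known to act on VEGFA transcription all rose where they were listed. Of 14 such factors 9 were listed (64.3%), against 11.8% of all genes the authors tested. Among all listed genes limma called 49.7% higher and 44.6% lower, and each of these 9 rose. Their median log2 difference was 1.47, against 0.53 for all listed genes. ATF4, the main factor of the amino acid response, had 10751 ± 2315 normalized counts in fasting medium and 2424 ± 111 in control medium and rose by 2.13 (limma adjusted p = 9.38e-05). XBP1, of the unfolded protein response, had 2949 ± 474 in fasting medium and 806 ± 81 in control medium and rose by 1.86 (adjusted p = 1.07e-04). The list also holds the growth signal factors FOS (log2 difference 4.67) and EGR1 (1.43). FOS and EGR1 stand on the list of RNA handling genes as well. The list was written with earlier results of these data known, and its part in the VEGFA rise was not tested. MYC, the smallest riser of the 9 at 0.59, was at 0.11 with total-read scaling and did not pass (adjusted p = 1).

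Beside P4HA2, 8 of 18 other genes of collagen hydroxylation and procollagen handling were listed (44.4%), against 11.8% of all genes the authors tested. Of these 8, 5 rose and 3 fell (median log2 difference 0.76), where limma called 49.7% of all listed genes higher and 44.6% lower. P4HA1 had 1263, 1290 and 1477 normalized counts in fasting replicates 1 to 3, against 448, 468 and 422 in control replicates 1 to 3, and its rise of 1.59 log2 units (SE 0.097, limma adjusted p = 5.80e-05) was near the 1.58 of P4HA2. P4HB, protein disulfide isomerase and the partner subunit of both, had 16719 ± 480 in fasting medium and 8451 ± 51 in control medium and rose by 0.98 (adjusted p = 1.75e-04). SERPINH1, the collagen chaperone of the endoplasmic reticulum, rose by 1.47, and MIA2, which helps load large cargo at its exit sites, by 0.97. PLOD1, a lysyl hydroxylase, rose by 0.55, a call lost with total-read scaling (0.07).

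The 3 fallers of this list also encode collagen modifying enzymes or their partners. P3H3, of the prolyl 3-hydroxylase family, fell by 1.04, the collagen galactosyltransferase COLGALT1 fell by 0.82, and P3H4 fell by 0.75 log2 units. COLGALT1 had 1879 ± 26 normalized counts in fasting medium and 3327 ± 45 in control medium. Of 23 collagen chains 2 were listed (8.70%), a share not above the 11.8% of all genes the authors tested. COL18A1 fell by 1.29 (limma adjusted p = 4.60e-03; adjusted p = 0.112 with the length trend removed), and COL9A3 had a log2 difference of -0.66 (adjusted p = 0.0779; 1.36e-06 without fasting replicate 3).

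Beside CA9, 1 of 14 other carbonic anhydrases was listed (7.14%), CA12, which fell as given. That share is not above the 11.8% of all genes tested by the authors. Of 22 transporters of protons, bicarbonate and lactate counted here, 3 were listed (13.6%), near the 11.8% of all genes the authors tested. SLC9A2, a sodium-proton exchanger found mainly in epithelia, had 39.4, 29.3 and 11.0 normalized counts in fasting replicates 1 to 3, against 103.6, 93.1 and 91.6 in control replicates 1 to 3, and fell by 1.99 log2 units (limma adjusted p = 0.0142). Its call was lost without any 1 control library (adjusted p = 0.0537 to 0.0662), while its log2 difference stayed at -1.93 to -2.02. SLC16A3 fell as given, and SLC16A7, another monocarboxylate transporter, had a log2 difference of -1.20 (adjusted p = 0.0945). Without fasting replicate 3 the SLC16A7 difference was smaller, -0.73, and passed (adjusted p = 1.75e-04).

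**Figure D4:**
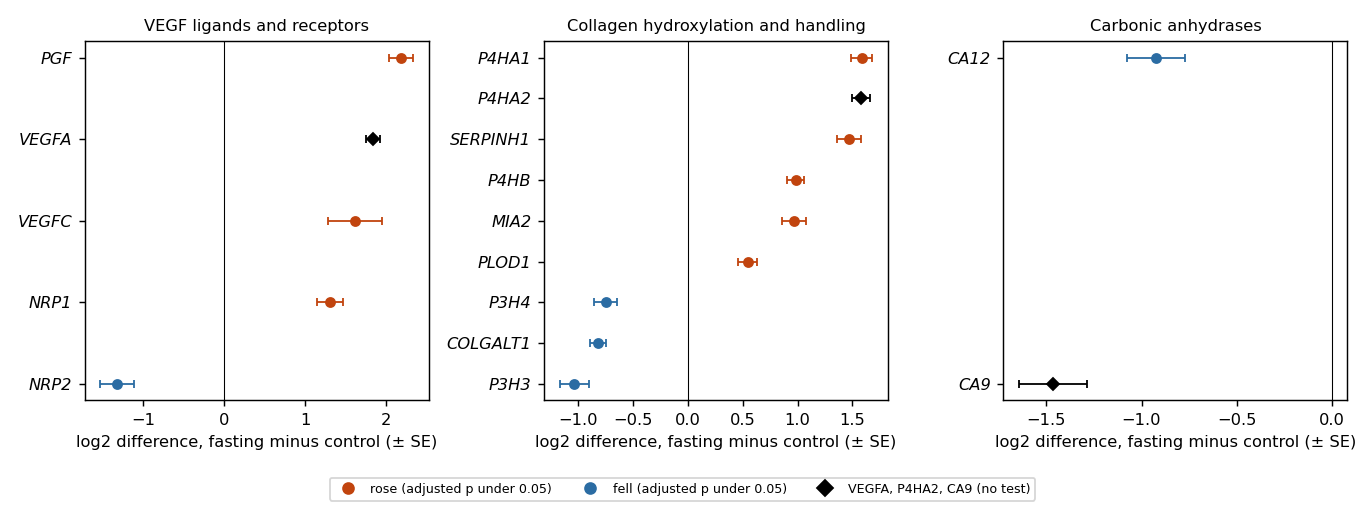
Log2 difference of fasting minus control (x axes, with SE) for listed relatives of VEGFA (left), P4HA2 (middle) and CA9 (right). Red circles rose, blue circles fell, and black diamonds were not tested. P4HA1 at 1.59 lies beside P4HA2 at 1.58, and CA12 at -0.92 lies on the same side as CA9.

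The genes nearest in pattern were found by the root mean square difference of log2 values, each gene centred on its own mean over the 6 libraries, among protein-coding genes whose higher group averaged 100 normalized counts or more. For P4HA2 the nearest of 2729 genes was P4HA1, at 0.044 log2 units, followed by TES (0.045), C3orf52 (0.050), SERPINB8 (0.056) and ZNF16 (0.056). For VEGFA they were TUFT1 (0.058), the alanyl-tRNA synthetase AARS1 (0.061), FICD, which modifies an endoplasmic reticulum chaperone (0.068), SLC2A3 (0.071) and STX3 (0.072). For CA9 they were KIF4A, a mitotic kinesin (0.077), TCF19 (0.079), DEPDC1B (0.081), WDR76 (0.082) and KIF26A (0.083). KIF4A had 248 ± 24 normalized counts in fasting medium and 713 ± 9 in control medium. Likeness over 6 libraries follows mainly the size of the group difference.

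**Figure D5:**
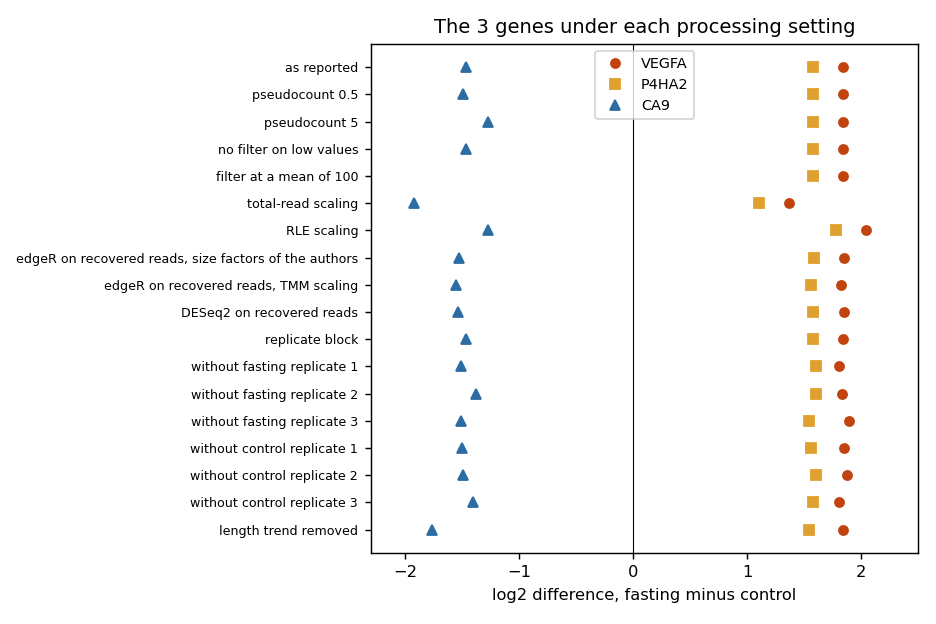
Log2 difference of fasting minus control (x axis) for VEGFA, P4HA2 and CA9 as reported and under each other processing setting (rows). VEGFA runs from 1.37 to 2.04, P4HA2 from 1.10 to 1.78 and CA9 from -1.92 to -1.27, and a filter at a mean of 100 leaves out CA9.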

How the data were processed

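RNA was sequenced from RKO cells, 3 samples in fasting and 3 in control medium. UMI-tools 1.0.0 stands in the submitters' processing notes, as do HTSeq 0.6.1 and DESeq 1.10.1, without roles. Aligner, annotation and build: not given in the sources used here. The deposited table names no unit for its 6 sample columns. From the values they are a signal, reads divided by a size factor per library by the authors, and 100% of values were whole reads within 0.01 read. Per gene the authors also deposited a log2 fold change and a p-value, raw and adjusted. Its highest adjusted p-value is 0.04999, so the deposited table was selected on the outcome, and rank and adjusted p gave 29845 genes tested by the authors.

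limma 3.58.1 with a mean-variance trend was run on log2(normalized count + 1) for listed genes that averaged 1 or more in either group, and Benjamini-Hochberg adjustment counted 29845 genes, unlisted ones at p = 1. Tests were two-sided, at 0.05. The moderation was estimated on listed genes alone. edgeR 4.0.16 and DESeq2 1.42.0 on the recovered reads were alternatives, and limma, edgeR and DESeq2 were tested on simulated data. For a deposited signal limma was the planned test. Gene names were matched by identifier (3467 of 3511 identifiers), lengths from GENCODE release 29, and promoter sequences from RefSeq (GRCh38.p14).

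The members, the 13 lists and the alternatives were chosen with earlier results of these data known. The genes named are the 3 members, the 5 nearest in pattern to each, up to 3 risers and 3 fallers per list by smallest adjusted p, and 18 genes whatever their result (12 listed). Other list members are named as examples, after their values were seen. Some list genes are not reported here, and the lists are counted without them.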

Additional observations from a re-analysis of the deposited data

How the results depend on the processing

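Across the alternatives that could be fitted, VEGFA and P4HA2 were higher and CA9 lower in fasting medium. Scaling to summed reads over the table (total-read scaling) moved the median of all genes by -0.48 and RLE scaling by 0.20 log2 units, and the listed genes cannot decide between them. Total-read scaling gave log2 differences of 1.37 for VEGFA, 1.10 for P4HA2 and -1.92 for CA9, and 862 genes called higher against 1745. It gave 7 HIF target risers, 1 riser among VEGF ligands and receptors and 2 fallers among collagen chains. RLE scaling gave 2.04, 1.78 and -1.28, with 3 HIF target fallers and 0 fallers among HIF subunits, sensors and cofactors. CA9 is low, and a pseudocount of 5 gave it -1.27, with CA9 minus VEGFA at -3.11 and CA9 minus P4HA2 at -2.85, against -3.31 and -3.04 as reported. With the length trend removed the values were -1.77, -3.61 and -3.31. A filter at a mean of 100 gave CA9 no value, 0 fallers among collagen chains and 1 among proton, bicarbonate and lactate transport genes. DESeq2 gave 2 collagen chain fallers.

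The shared replicate numbers gave no clear sign of pairing, which 3 libraries per group cannot exclude. Same-numbered deviations from the group means had correlations of 0.032, 0.027 and 0.077 over 2897 genes. The others ran from -0.111 to 0.0996, the highest for fasting replicate 2 with control replicate 1. The replicate block moved 1 count by over 1.5 times, fallers among collagen chains, to 2. With it COL9A3 (adjusted p = 0.0365) and SLC16A7 (adjusted p = 0.0451) passed, and it changed no other call among the 64 named genes with a test. On leaving out each library in turn, log2 differences ran from 1.81 to 1.89 for VEGFA, 1.54 to 1.60 for P4HA2 and -1.51 to -1.38 for CA9. HIF target fallers ran from 3 to 5, fallers among HIF subunits, sensors and cofactors from 0 to 1, among transport genes from 1 to 3 and among collagen chains from 1 to 2. Without 1 control library, 1464 to 1488 genes were called higher, against 1745 with all libraries. Those called lower numbered 1160 to 1176, against 1567. A call lost there need not mean that it rested on that replicate. Of these 64 genes, 17 lost or gained a call in at least 1 of 17 settings and 0 changed sign. Depth limits CA9 and VEGFC, and also SLC9A2, which had 11.0 normalized counts in fasting replicate 3.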
